A study of Mus musculus with 16 samples.

Results

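Whole skin of mice treated with SDS and Topsym was compared between day 5 and day 1, over all genes measured, in 4 of the 16 RNA sequencing libraries of a time course. The groups were taken from the titles, which name SDS, the day and Topsym, and each group holds 2 libraries. SDS was read as sodium dodecyl sulfate, a detergent that irritates skin, and Topsym as a trade name of fluocinonide, a strong glucocorticoid for topical use. Both readings are background knowledge and are not stated in the labels. All groups share whole skin of mice 7 weeks old and a topical treatment given as 4 days, although the titles run to day 5. The strain, sex, genotype, body site and the time at which either agent was first applied are not given in the sources used here. The groups used are SDS with Topsym at day 1 and at day 5, SDS with Topsym at day 3 as values only, and SDS alone at days 1 and 5 for the test of whether the arms differed. SDS alone at day 0 is quoted for a few levels. Every title of days 1 to 5 names SDS. The labels do not tell whether a group's libraries are different animals, and p-values may then reflect technical spread alone. The change from day 1 to day 5 therefore holds time, the agents and any difference between animals or pieces of skin, which cannot be told apart.

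The epidermis renews itself from basal keratinocytes, which divide, move outwards, switch keratins and end as cornified cells sealed by cross-linked envelope proteins and lipids. Irritation turns on alarm keratins and antimicrobial proteins, speeds division and draws in leukocytes. Glucocorticoids act through a nuclear receptor that turns on a set of target genes and lowers many inflammatory ones, and long use thins the epidermis and the collagen of the dermis. The dermis below also holds fat cells, vessels, hair follicles and a sheet of skeletal muscle, so whole skin reads all of them together.

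The libraries of day 1 held 25529414 and 27069555 reads and those of day 5 held 15199656 and 18880060. Genes with at least 1 read numbered 23528 and 23513 at day 1 and 19885 and 20411 at day 5. The day 5 libraries with Topsym stood apart in reads of genes annotated as ribosomal RNA, at 2.52% and 2.2%, against 0.0546% to 0.170% in the other 14 libraries. The 10 highest genes took 14.8% and 14.4% of the reads at day 5, and 6.15% and 6.21% at day 1. The part of RNA quality or library preparation in the results was not tested. Defining markers of keratinocytes, fibroblasts, endothelium and skeletal muscle (Krt5, Col1a1, Pecam1 and Myh4) were present in all 4 libraries. Values are normalised reads, scaled for depth but not for gene length, so levels are compared within a gene and not ranked between genes. Summed levels of a list add such reads. A change is given on the scale log2(normalised reads + 1), day 5 minus day 1, with its standard error (SE) and limma's adjusted p, and a gene passed at an adjusted p under 0.05.

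Most of the transcriptome differed between the days. Of 19189 genes tested, 13569 passed (70.7%), 6165 higher at day 5 (32.1%) and 7404 lower (38.6%), with a median change over all genes of -0.14. Between the same days of SDS alone, 12532 genes passed (65.3%), 30.2% of all higher and 35.1% lower. The change differed between the arms for 6710 (35.0%), by a higher value with Topsym for 3150 (16.4%) and a lower one for 3560 (18.6%). A difference of at least 2-fold passed for 772 higher (4.02%) and 1559 lower (8.12%). At least 2-fold, with Topsym, 3155 genes were higher (16.4%) and 5213 lower (27.2%). With so many genes called, a share of a list near 70.7% says little of that list, and size and direction are given instead. The day 1 and day 5 libraries with Topsym did not overlap for 16089 of the genes tested (83.8%). Lack of overlap thus says little of a single gene. The lists were drawn from textbook knowledge of skin, and their members are counted whatever their values. In whole skin, fewer cells of a type and less RNA per cell cannot be told apart.

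**Figure D1:**
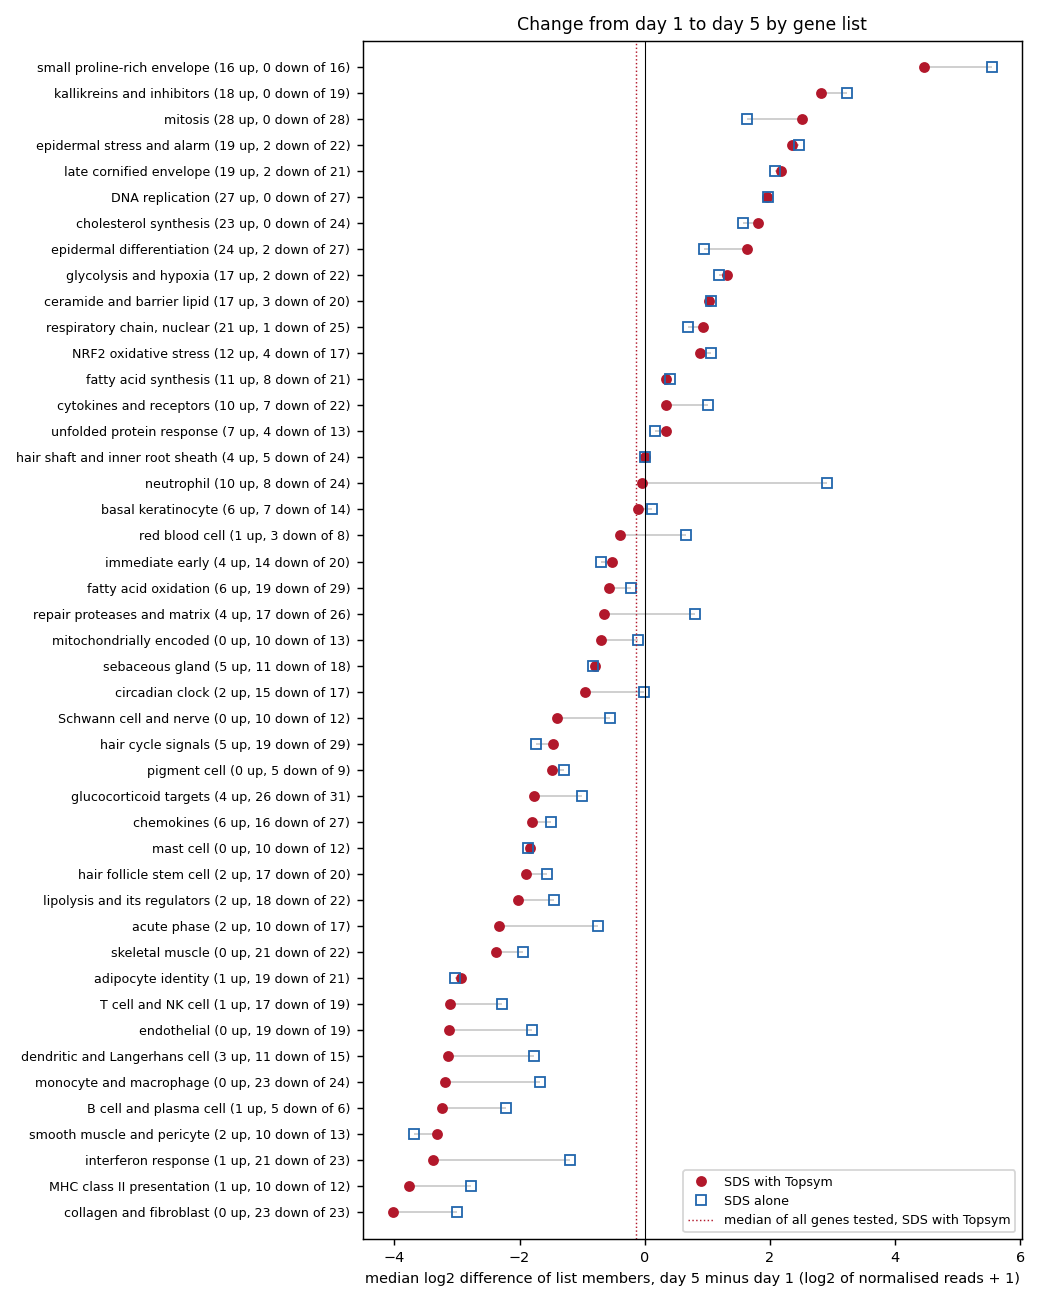
Median log2 difference, day 5 minus day 1, of the members of each gene list on the log2(normalised reads + 1) scale, with Topsym (filled circles) and with SDS alone (open squares). Labels count the members higher and lower with Topsym. Small proline-rich genes stand highest at 4.47 and collagen and fibroblast genes lowest at -4.02 with Topsym, and the dotted line marks the median of all genes at -0.14.

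Genes of the stressed, cornifying epidermis were higher at day 5 and made up most of the largest rises. Of 22 alarm and stress genes of keratinocytes, 19 were higher and 2 lower, at a median of 2.35. Krt6b, a keratin of wounded and dividing epidermis (ENSMUSG00000023041, GRCm38 chromosome 15, 101676023 to 101680287), stood at 511 and 511 normalised reads at day 1 and at 159903 and 147992 at day 5. Both day 5 libraries lay far above both day 1 libraries, a log2 change of 8.23 (SE 0.10, adjusted p = 6.98e-19). At day 3 the level was 50973 and 44848, so most of the log2 change was present by then. Krt16, which pairs with the Krt6 keratins, went from 5002 and 6318 to 316915 and 310230, and Krt6a from 3710 and 3827 to 100679 and 92522. In the arm of SDS alone the changes of Krt6a and Krt6b were similar, at 4.59 and 7.95. The test of the difference between arms did not pass for either (0.09, SE 0.10 and 0.28, SE 0.15). For Krt6b it did pass with only the libraries compared and with both count tests. Krt17, another alarm keratin, rose by 2.53 with Topsym and by 1.17 alone, a difference of 1.36 (SE 0.08, adjusted p = 2.45e-09).

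Small proline-rich proteins are cross-linked into the cornified envelope. Their genes gave the 4 largest rises among genes with a day 5 mean of at least 100, predicted gene models left out. All 16 members tested were higher, at a median of 4.47 with Topsym and 5.55 with SDS alone. The genes sit side by side on chromosome 3, and reads of near-identical copies may be split between them, so single members are uncertain. Sprr2a3 (92285417 to 92291405) had 0 reads in both day 1 libraries and 4264 and 3678 normalised reads at day 5, at least 3330-fold higher against a floor of 3 reads over the group. Sprr2a1 and Sprr2a2, whose gene models overlap, had 2 reads each over the day 1 libraries. Their ratios of day 5 to day 1 were 6022 (95% counting interval from 1655 to 49413) and 3849 (1062 to 31708). Sprr2b had 2 reads at day 1 and 1085 and 1235 at day 5, a ratio of 1418 (406 to 12152). Such bounds hold counting error alone and treat reads as independent. Sprr1b went from 9134 and 9040 to 130666 and 129788, and its change did not pass the test of a difference between arms (0.05, SE 0.09).

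Sprr2d and Sprr2b rose less with Topsym than without it. Sprr2d reached 27853 and 27863 at day 5 with Topsym and 69445 and 67490 alone, from day 1 levels of 519 to 681, and the difference of the changes was -1.08 (SE 0.15, adjusted p = 4.33e-05). For Sprr2b the day 5 levels were 1085 and 1235 against 14624 and 14173. Its difference of -3.04 (adjusted p = 0.0354) rests on a handful of reads at day 1 and lost its call in 10 alternatives, including edgeR on recovered reads (-1.99, adjusted p = 0.448). In the list, 3 members changed more with Topsym and 8 less.

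Late cornified envelope genes lie in the same chromosomal cluster. Of 21, 19 were higher and 2 lower, at a median of 2.17. The Lce3 genes, which are known from injured and psoriatic skin, gave the 3 largest rises of the list. Lce3b stood at 36 and 29.4 at day 1 and 1979 and 1775 at day 5, Lce3e at 212 and 265 and then 6625 and 6219, and Lce3f at 170 and 174 and then 4713 and 3999. The Lce1 genes of resting epidermis stood lower at day 3 than at day 1, and the summed level of the whole list was 67232 and 67003 at day 1, 23204 and 22124 at day 3 and 199861 and 191615 at day 5. The 2 members that fell were Lce1l and Lce1m, the latter from 18304 and 18484 to 7676 and 7956.

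Terminal differentiation genes rose with the alarm genes. Of 27, 24 were higher and 2 lower, at a median of 1.64, against 0.95 with SDS alone. Flg, which encodes filaggrin, the protein that bundles keratin in cornified cells, stood at 2956 and 3190 at day 1 and 85936 and 89262 at day 5. Both day 5 libraries were higher by a log2 change of 4.83 (SE 0.05, adjusted p = 1.37e-19), and alone the change was 3.96, a difference of 0.87 (SE 0.07, adjusted p = 2.49e-07). Rptn, a filaggrin relative, rose by 5.42, and Krt1, a keratin of the spinous layer, by 3.71. Its partner Krt10 stood at 129801 and 131853 at day 1, dipped to 73850 and 73806 at day 3, and reached 461758 and 464231 at day 5. Ivl, the envelope protein involucrin, rose by 2.2 with Topsym and 0.60 alone, a difference of 1.60 (SE 0.07, adjusted p = 3.14e-10). In the test between arms, the change was higher with Topsym for 14 members and lower for 7. Krt77 and Flg2 fell, by 1.60 and 1.84 on the log2 scale.

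Proteases that loosen the cornified layer and their inhibitors rose together, 18 of 19 higher and none lower, at a median of 2.82 (2.60 with members without day 1 reads at their bound). Serpinb3a (chromosome 1, 107045587 to 107052303), of the ovalbumin-like inhibitors, had 0 reads at day 1 and 482 and 658 normalised reads at day 5, at least 478-fold higher. The kallikrein inhibitor Spink12 went from 0 reads to 512 and 455 normalised reads, at least 406-fold higher. Serpinb12 rose from 72.8 and 55.7 to 5813 and 5721. Among the largest rises outside the lists, Akr1d1, a steroid reductase known from liver, had 0 reads at day 1 and 240 and 275 normalised reads at day 5, at least 216-fold higher, and Gsdmc, a gasdermin, rose from 16.4 and 10.8 to 3616 and 3579.

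Enzymes of barrier lipids counted 17 higher and 3 lower among 20, at a median of 1.02. Degs2, which makes the hydroxylated ceramides of the barrier, went from 247 and 242 to 4500 and 3775. Smpd1 (acid sphingomyelinase) and Sdr9c7 rose by 1.92 and 1.91. Fabp5, a fatty acid carrier of keratinocytes that was listed with the sebaceous gland, went from 7946 and 7906 through 49314 and 50110 at day 3 to 229034 and 231020 at day 5 (log2 4.86, SE 0.04, adjusted p = 1.12e-20).

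Basal keratinocyte genes split. Of 14, 6 were higher and 7 lower, at a median of -0.10. Krt14 and Krt5, the keratin pair of the basal layer, rose from 83834 and 83902 to 858784 and 808925 and from 95463 and 94023 to 383442 and 372706. Krt15, which marks slow-cycling basal and follicle stem cells, fell from 50536 and 50554 to 5978 and 5978 (-3.08, SE 0.04, adjusted p = 3.16e-18). All 3 moved further with Topsym than alone, by 0.67, 0.98 and -1.50.

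**Figure D2:**
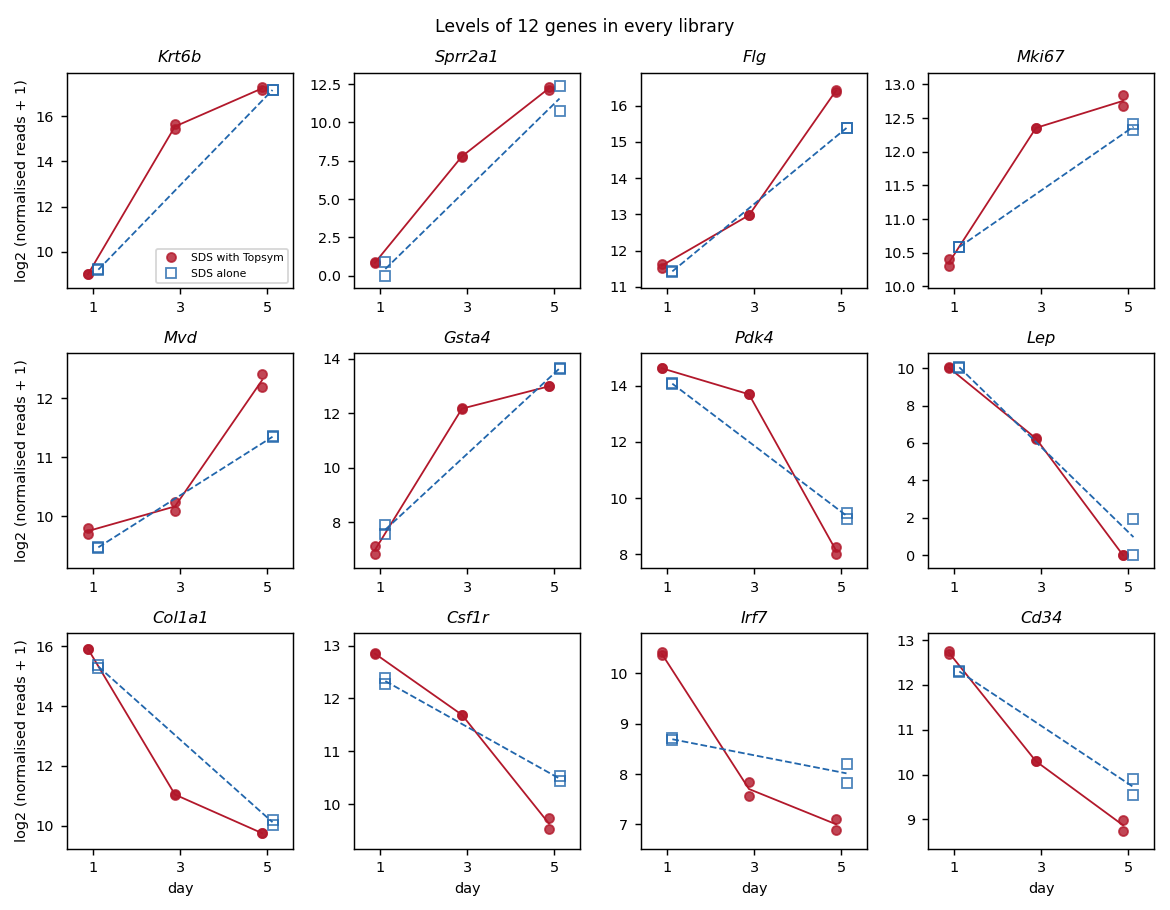
Levels of 12 genes as log2(normalised reads + 1) in every library at days 1, 3 and 5 of SDS with Topsym (filled circles, solid line through the means) and days 1 and 5 of SDS alone (open squares, dashed line). Both libraries of day 5 with Topsym lie above both of day 1 in the first 6 panels and below them in the last 6, and Irf7 starts higher with Topsym than alone. Such lack of overlap was seen for 83.8% of all genes tested.

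Cell division genes rose without exception. All 27 DNA replication genes and all 28 mitosis genes were higher at day 5, at medians of 1.96 and 2.51. Mki67, a marker of cycling cells, stood at 1355 and 1260 at day 1, 5225 and 5240 at day 3 and 6523 and 7322 at day 5 (2.40, SE 0.06, adjusted p = 4.80e-15). Birc5 (survivin, a subunit of the chromosomal passenger complex) rose from 167 and 157 to 2291 and 2647, and Cdk1, the kinase that starts mitosis, from 227 and 217 to 2281 and 2138. Of the replication genes, Ccne1 (cyclin E) rose from 29.4 and 13.1 to 393 and 513, and Mcm5, a subunit of the replicative helicase, from 277 and 227 to 2489 and 2452. The summed replication list stood at 28622 and 28957 at day 3 and at 32783 and 32914 at day 5, so most of its rise came by day 3.

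The mitosis list also differed between the arms. It had a median of 2.51 with Topsym and 1.64 alone, a median difference of 0.78, and 25 of its 28 members changed more with Topsym, where 16.4% of all genes did. None changed less. For replication the medians were 1.96 and 1.97, the median of the differences was 0.34, and 10 of 27 changed more with Topsym and none less. Birc5 reached 1265 and 1253 at day 5 of SDS alone, so its change was larger with Topsym by 1.07 (SE 0.16, adjusted p = 8.78e-05). Mki67 differed by 0.62 (SE 0.09, adjusted p = 5.88e-05). The day 1 levels of both arms were near each other, at 9539 and 9548 summed normalised reads of the mitosis list with Topsym and 9763 and 9660 alone.

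Promoters of genes that rose together are shown because their short motifs are textbook marks of cell cycle genes. The stretches are the 250 bases before the start of each gene in RefSeq on GRCm38.p6, 5′ to 3′ on the strand of the gene, with the matches, on either strand, of the motifs searched for the gene's own list in capitals. Mitosis genes were searched for CCAAT and the cell cycle homology forms, and replication genes for the E2F forms, so a motif of the other list can stand in lower case. The Top2a stretch (topoisomerase II, chr11:99024190-99024439, minus strand) holds CCAAT 6 times, TTTGAA 2 times and TTCGAA 2 times. Ccnb2 (cyclin B2, chr9:70421555-70421804, minus strand) holds CCAAT at 87, 54 and 21 bases before the start and TTTGAA at 167. Cdk1 (chr10:69352913-69353162, minus strand) holds CCAAT 3 times and TTTGAA 2 times. Mcm6, a helicase subunit (chr1:128359706-128359955, minus strand), holds the E2F forms TTTGGCGC 2 times and TTTCGCGC once, and 2 of these matches overlap.
Top2a: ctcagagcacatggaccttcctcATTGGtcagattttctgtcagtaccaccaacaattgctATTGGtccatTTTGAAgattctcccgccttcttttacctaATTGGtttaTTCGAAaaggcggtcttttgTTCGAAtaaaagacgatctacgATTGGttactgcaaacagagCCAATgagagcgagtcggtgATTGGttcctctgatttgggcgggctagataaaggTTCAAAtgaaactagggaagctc
Ccnb2: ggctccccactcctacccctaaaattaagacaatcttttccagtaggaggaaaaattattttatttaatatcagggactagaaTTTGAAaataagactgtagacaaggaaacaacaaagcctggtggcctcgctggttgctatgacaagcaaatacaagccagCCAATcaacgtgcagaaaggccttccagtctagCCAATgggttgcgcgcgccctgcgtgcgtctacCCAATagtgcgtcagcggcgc
Cdk1: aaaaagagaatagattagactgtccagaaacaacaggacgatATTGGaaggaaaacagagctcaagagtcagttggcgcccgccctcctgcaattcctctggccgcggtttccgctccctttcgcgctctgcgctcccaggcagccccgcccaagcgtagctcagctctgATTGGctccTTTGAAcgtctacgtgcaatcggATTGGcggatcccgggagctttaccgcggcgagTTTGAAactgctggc
Mcm6: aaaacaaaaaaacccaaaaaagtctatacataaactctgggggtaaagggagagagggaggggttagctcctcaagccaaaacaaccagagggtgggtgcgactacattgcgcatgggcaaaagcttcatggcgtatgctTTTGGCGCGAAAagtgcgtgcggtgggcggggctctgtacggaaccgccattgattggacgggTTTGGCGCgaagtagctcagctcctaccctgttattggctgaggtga

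Among the mitosis genes that rose, 23 had a window, and CCAAT was found in 20 of 24 windows (83.3%), against 33.8% of all 32851 windows. The cell cycle homology forms TTTGAA and TTCGAA were found in 37.5% and 8.33%, against 16% and 1.34%. Any of the E2F forms TTTGGCGC, TTTCCCGC and TTTCGCGC was found in 8 of 24 windows of replication genes (33.3%), against 1.53% of all. The matches describe these letters in these windows, and neither binding nor use was measured. Of the genes printed, Top2a went from 1042 and 1177 to 5924 and 5837, Ccnb2 from 277 and 304 to 1751 and 1770, and Mcm6 from 683 and 680 to 2511 and 2735.

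Cholesterol synthesis genes rose as a group, 23 of 24 higher and none lower, at a median of 1.81 (1.57 alone). Mvd of the mevalonate branch went from 826 and 890 through 1203 and 1092 at day 3 to 5442 and 4686 (2.56, SE 0.08, adjusted p = 5.76e-14). Tm7sf2, a sterol reductase, went from 157 and 142 to 958 and 786 (2.53, SE 0.15, adjusted p = 1.71e-10). For both genes the day 5 libraries lay above the day 1 libraries. Both rose more with Topsym than alone, by 0.68 and 0.89, and over the list the change was higher with Topsym for 11 members and lower for 2. Hmgcs1, which makes the precursor of mevalonate, rose least of those called, from 5564 and 5724 to 8223 and 9477.

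The promoter of Hmgcs1 (chr13:119690101-119690350, plus strand, GRCm38.p6) is shown because it alone of the list's windows held the sterol element form TCACNCCAC. The match lies 137 bases before the start, and CCAAT was found 3 times. The capitals mark these 4 matches.
Hmgcs1: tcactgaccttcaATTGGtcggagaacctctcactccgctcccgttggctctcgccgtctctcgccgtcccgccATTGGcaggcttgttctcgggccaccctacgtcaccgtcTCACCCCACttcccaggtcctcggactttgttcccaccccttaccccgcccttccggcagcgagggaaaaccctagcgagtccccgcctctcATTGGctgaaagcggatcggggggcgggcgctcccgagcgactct
Of 19 windows of the cholesterol genes that rose, 16 held CCAAT (84.2%, against 33.8% of all windows) and 1 held TCACNCCAC (5.26%, against 1.05%).

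Fatty acid synthesis genes moved both ways, 11 higher and 8 lower of 21. Scd2, a desaturase, rose from 2189 and 2193 to 15621 and 15198, whereas Acacb, an acetyl-CoA carboxylase that guards oxidation, fell from 3524 and 3558 to 835 and 789, and the lipogenic factor Mlxipl from 543 and 583 to 113 and 104. Glycolysis and hypoxia genes counted 17 higher and 2 lower among 22 (median 1.32). The enolase Eno1 went from 6255 and 6115 to 42536 and 38504, and the glucose carrier Slc2a1 from 1808 and 1845 to 9617 and 9267. Respiratory chain genes of the nucleus counted 21 higher and 1 lower among 25 (median 0.94), with Cox6a1 at 1.98. Those encoded in mitochondria went the other way, none higher and 10 of 13 lower (median -0.70). With SDS alone the mitochondrial list had a median of -0.10 and 4 lower, and the change was lower with Topsym for 7 members.

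Genes of the NRF2 response to oxidants counted 12 higher and 4 lower among 17. The glutathione transferase Gsta4 went from 115 and 138 through 4708 and 4513 at day 3 to 8126 and 8148 at day 5 (6.01, SE 0.12, adjusted p = 1.46e-16). Its change alone was 5.91, and the difference did not pass (0.10, SE 0.17). Gsta1 was uneven between the day 5 libraries, at 319 and 850, and both lay above 13.9 and 19.3 at day 1. Of 13 genes of the unfolded protein response 7 were higher and 4 lower (median 0.33, against 0.17 alone).

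**Figure D3:**
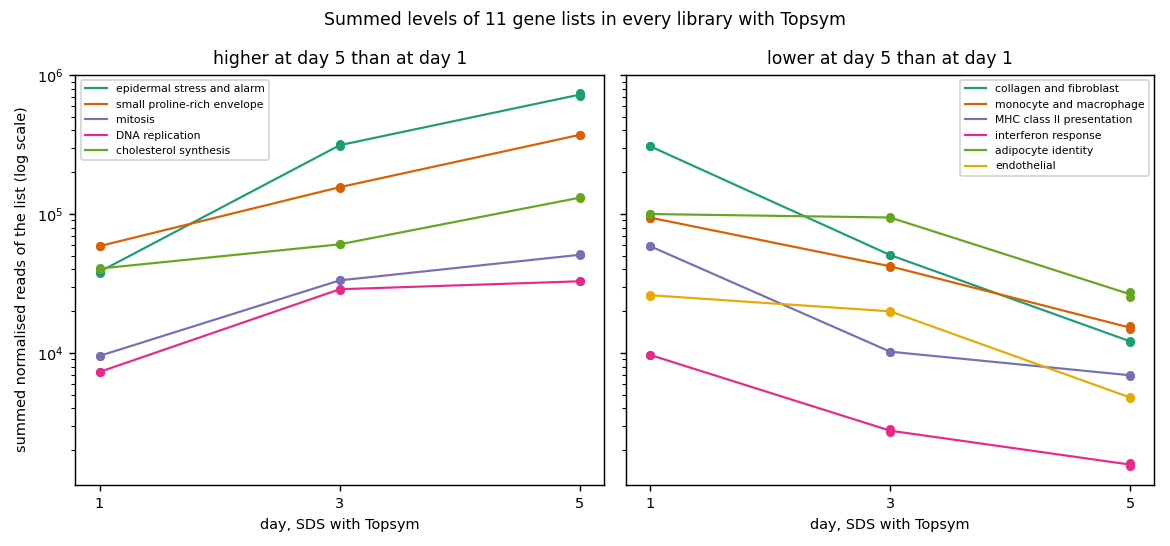
Summed normalised reads (log axis) of 11 gene lists in both libraries at days 1, 3 and 5 of SDS with Topsym, with lines through the means. Lists in the left panel are higher at day 5 and those in the right panel lower. Replication reaches most of its level by day 3, whereas the adipocyte and endothelial lists fall mainly after day 3. Heights of different lists are not comparable, since values are not per gene length.

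Target genes of the glucocorticoid receptor were lower at day 5 than at day 1 in the arm with Topsym. Of 31, 26 were lower and 4 higher, at a median of -1.77, against -1.0 with SDS alone. Fkbp5, a chaperone that dampens the receptor, stood at 12105 and 12164 at day 1, 6606 and 6687 at day 3 and 4615 and 4614 at day 5 (-1.39, SE 0.04, adjusted p = 2.35e-14). Tsc22d3 (GILZ), an anti-inflammatory target, went from 12032 and 11926 to 3213 and 3040. The receptor gene Nr3c1, which is counted in the list, fell from 1862 and 1924 to 520 and 665 (-1.68, SE 0.09, adjusted p = 2.79e-11). Pdk4 and Angptl4 are counted here and also in the fatty acid oxidation and lipolysis lists below. The members that were higher were Cebpb, the metallothionein genes Mt1 and Mt2, and Cdkn1a, at 1.69, 0.68, 1.30 and 0.15.

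At day 1 the summed list was high against day 0 of SDS alone, a group whose titles also name SDS. At day 0 it stood at 69375 and 70669, against 173832 and 174752 at day 1 with Topsym and 71793 and 71714 at day 5. Fkbp5 stood at 2246 and 2206 at day 0. Nr3c1 went the other way, at 3253 and 3015 at day 0, above its day 1 level. Trim63, a muscle ubiquitin ligase that glucocorticoids induce and a member of the skeletal muscle list, stood at 731 and 752 at day 0, at 11576 and 11641 at day 1 with Topsym and at 742 and 788 at day 5. At day 1 of SDS alone the summed list was also high, at 156506 and 154929, and it stood at 89084 and 88449 at day 5. These day 0 levels are given without a test.

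In the test between arms, 20 of 31 targets fell more, or rose less, with Topsym (18.6% of all genes did) and 4 went the other way. Klf9, a target that slows keratinocyte growth, fell from 5349 and 5484 to 536 and 674 with Topsym and from 4625 and 4885 to 2064 and 1922 alone, a difference of -1.91 (SE 0.11, adjusted p = 3.93e-09). Glul, glutamine synthetase, fell from 31542 and 31768 to 6428 and 6711, and alone from 26917 and 27260 to 20524 and 19894, a difference of -1.85 (SE 0.06, adjusted p = 9.07e-12). Fkbp5 did not pass (0.07, SE 0.06), and Tsc22d3 differed by -0.38. The promoter of Glul (chr1:153899679-153899928, plus strand, GRCm38.p6) is shown as 1 of the 3 targets that fell whose windows held the receptor's core letters ACANNNTGT, in capitals.
Glul: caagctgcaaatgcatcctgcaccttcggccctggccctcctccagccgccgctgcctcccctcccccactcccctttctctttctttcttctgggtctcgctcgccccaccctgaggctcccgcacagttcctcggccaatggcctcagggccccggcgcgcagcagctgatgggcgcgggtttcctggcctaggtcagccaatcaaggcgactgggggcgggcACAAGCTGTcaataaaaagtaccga
These letters were found in 5 of 35 windows of the targets that fell (14.3%), against 5.84% of all windows, and in 1 of 5 windows of the targets that rose. The 5 windows belong to 3 of 20 members, and the 2 of Fam107a overlap almost wholly. Receptor sites often lie far from the start of a gene, outside such windows.

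Fat cell genes and the genes that release fat fell. Lep, the fat hormone leptin (chromosome 6, 29060220 to 29073877), had 1011 and 1066 normalised reads at day 1, 75.3 and 73.7 at day 3 and no read in either day 5 library, at least 388-fold lower. Of 21 adipocyte genes, 19 were lower and 1 higher, at a median of -2.94. Adipoq (adiponectin) went from 1029 and 1096 to 80.7 and 123, and Pck1 from 3114 and 3097 to 28.2 and 43.1. Both stood higher at day 3 than at day 1, Adipoq at 2968 and 2928 and Pck1 at 9563 and 10096. Of 22 genes of lipolysis and its control, 18 were lower and 2 higher. Pnpla2, the lipase that opens triglyceride breakdown, fell from 12794 and 12993 to 2878 and 2888 (-2.16, SE 0.07, adjusted p = 3.57e-14), and Lipe, the next lipase, from 1902 and 2055 to 1259 and 1173. Angptl4, an inhibitor of lipoprotein lipase, fell by 5.65.

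The arms did not part in 1 direction here. Of the adipocyte genes, the change was higher with Topsym for 8, among them Cebpa, which rose, and lower for 4. Plin1, a coat protein of fat droplets, stood at 68.6 and 73.5 at day 5 with Topsym and at 2.85 and 9.92 alone, a difference of 2.80 (SE 0.43, adjusted p = 9.04e-05). Adipoq and Lep did not pass the test of a difference (-0.19, SE 0.21 and -0.95, SE 0.58). They did pass without 1 library, Adipoq at -0.49 without replicate 2 of day 5 with Topsym and Lep at -1.92 without replicate 1 of day 5 alone. Pnpla2 fell more with Topsym by 0.71 on the log2 scale (adjusted p = 2.77e-05). Lipe fell less, by 0.39 (adjusted p = 0.0174), and that call was lost without any of 4 single libraries, among them replicate 2 of day 5 alone (0.31, adjusted p = 0.0704).

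Fatty acid oxidation genes counted 19 lower and 6 higher among 29, at a median of -0.57. Pdk4, a kinase that blocks the entry of pyruvate into oxidation (chromosome 6, 5483351 to 5496309), gave the largest fall of the list, from 25104 and 25147 through 13262 and 13209 at day 3 to 303 and 260 at day 5. The change was -6.48 (SE 0.11, adjusted p = 1.56e-17), against -4.69 alone, a difference of -1.78 (SE 0.15, adjusted p = 2.27e-07). At day 0 of SDS alone Pdk4 stood at 688 and 588. The uncoupling protein gene Ucp3 went from 1312 and 1303 to 24.2 and 19.2, and Ppargc1a, a coactivator of mitochondrial genes, from 147 and 164 to 32.3 and 25.6. Cd36, a fatty acid carrier of fat cells and vessels, rose to 7112 and 7176 at day 3 from 4623 and 4561, and fell to 315 and 358 at day 5.

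Collagen and fibroblast genes fell most as a list. All 23 were lower, at a median of -4.02 with Topsym and -3.00 alone. Col1a1, the main chain of dermal collagen (chromosome 11, 94936224 to 94953042), stood at 61932 and 61718 at day 1, 2058 and 2145 at day 3 and 861 and 855 at day 5. The change of -6.17 (SE 0.05, adjusted p = 1.12e-20) was larger than that alone by 0.96 on the log2 scale (adjusted p = 9.20e-08). Col3a1 went from 42997 and 42888 to 573 and 593 and differed from SDS alone by -2.23 (SE 0.06, adjusted p = 9.88e-13). The carboxypeptidase gene Cpz, among the largest falls, went from 832 and 851 to 4.03 and 6.39. Of the list, 19 fell more with Topsym and none less. The summed list stood at 403348 and 413942 at day 0 of SDS alone, 308555 and 307998 at day 1 with Topsym and 11974 and 12280 at day 5.

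Repair proteases and matrix genes counted 17 lower and 4 higher among 26 with Topsym, at a median of -0.65. With SDS alone 15 were higher and 10 lower, at 0.81, and the change was lower with Topsym for 14 members and higher for 1. Mmp13, a collagenase of wounds, stood at 76.6 and 32 at day 5 with Topsym and at 713 and 682 alone, from 20.4 to 32.7 at day 1, a difference of -3.40 (SE 0.49, adjusted p = 5.58e-05). Has3, a hyaluronan synthase of keratinocytes, was the member that rose more with Topsym, from 66.3 and 38.7 to 843 and 788.

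Vessel and muscle genes fell as well. All 19 endothelial genes were lower (median -3.13, against -1.81 alone), and 13 fell more with Topsym. Lyve1, a marker of lymph vessels and of some macrophages, went from 6090 and 6228 to 228 and 203. Of 13 smooth muscle and pericyte genes 10 were lower and 2 higher, with Myh11 at -5.47, and 6 of them fell less or rose more with Topsym. Of 22 skeletal muscle genes 21 were lower and none higher (median -2.37), and their summed level went from 701461 and 707643 to 178293 and 181028. The depth of tissue sampled is not stated, and its part in these falls was not tested. In the test between arms, the change was higher with Topsym for 8 skeletal muscle genes and lower for 10, at a median difference of -0.08. Among them Trim63 and Fbxo32, the ligase genes of muscle wasting, fell by 3.92 and 4.03 with Topsym and by 0.84 and 1.41 alone, differences of -3.09 and -2.62 (adjusted p = 9.74e-13 and 6.61e-12).

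Most macrophage, dendritic cell and antigen presentation genes were lower at day 5. Of 24 monocyte and macrophage genes 23 were lower and none higher, at a median of -3.19 with Topsym and -1.67 alone, and 22 fell more, or rose less, with Topsym. Their summed level was 94529 and 94309 at day 1 with Topsym, above 58859 and 56976 alone, and 15627 and 14813 at day 5, below 24074 and 23805 alone. Mrc1, a mannose receptor of resident macrophages, went from 6941 and 6785 to 373 and 358 (-4.23, SE 0.06, adjusted p = 1.66e-18). Ccr2, the receptor that recruits monocytes, went from 1327 and 1330 to 28.2 and 12.8. The test of the difference thus holds both a higher start and a lower end in the arm with Topsym.

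Of 12 genes of MHC class II presentation 10 were lower and 1 higher, at a median of -3.77 (-3.42 with members without day 5 reads at their bound). Cd74, the invariant chain, went from 26132 and 25797 to 1287 and 1363, and Ciita, the master activator of the class, from 190 and 173 to 0 and 3.20. In this case day 1 was lower with Topsym than alone, where Cd74 stood at 42839 and 38886. Dendritic and Langerhans cell genes counted 11 lower and 3 higher among 15, with Mgl2 at -5.78, and their summed level went from 15499.7 and 15598 to 11528 and 11259.5. T cell and NK cell genes counted 17 lower and 1 higher among 19, at -3.11 (-2.81 at the bound), though most of these counts are low and 11 were called among genes with a mean of at least 50. B cell genes counted 5 lower and 1 higher among 6, at -3.24 (-2.95 at the bound). Mast cell genes were lower for 10 of 12 (median -1.83, against -1.86 alone).

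Interferon response genes gave the widest gap in median between the arms among lists that fell in both. Of 23, 21 were lower and 1 higher, at a median of -3.38 with Topsym and -1.19 alone, and the change was lower with Topsym for 18 and higher for none. Oas3, an antiviral sensor, went from 366 and 397 to 16.1 and 19.2 with Topsym and from 87.4 and 94.9 to 72.6 and 60.9 alone, a difference of -3.91 (SE 0.33, adjusted p = 1.89e-07). Ifit3 went from 834 and 759 to 28.2 and 59.1, and Irf7, the factor that amplifies the response, from 1365 and 1309 to 137 and 118. The summed list was higher with Topsym at day 1, at 9760 and 9648 against 5153 and 5017, and lower at day 5, at 1607 and 1542 against 2443 and 2483. At day 0 of SDS alone it stood at 6414 and 6194. Most of the fall with Topsym was present at day 3, at 2708 and 2819.

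Neutrophil genes were mixed with Topsym and mostly higher with SDS alone. Of 24 tested, 10 were higher and 8 lower with Topsym (median -0.05), while with SDS alone 19 were higher and 2 lower (median 2.91). Over all genes, 32.1% were higher and 38.6% lower with Topsym, and 30.2% and 35.1% alone. S100a9, a subunit of calprotectin, stood at 229 and 297 at day 1, 1519 and 1352 at day 3 and 27738 and 27973 at day 5 with Topsym, and at 210535 and 220928 at day 5 alone. The changes were 6.73 and 9.57, a difference of -2.83 (SE 0.15, adjusted p = 1.50e-09). Stressed keratinocytes also make S100a8 and S100a9, and both genes are on the alarm list too. The stefins Stfa1, Stfa2 and Stfa3 rose by 7.36, 7.95 and 8.73, and for Stfa3 the difference between arms did not pass (0.38, SE 0.19).

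Several genes of the neutrophil list stayed low at day 5 with Topsym, although 10 other members were higher than at day 1. Those named next were picked after their values were seen. Ly6g had no read in any library of the groups compared, Elane none at day 5, Ngp stood at 4.03 and 0, Ltf at 4.03 and 3.20 and Camp at 0 and 3.20. Mmp8, a collagenase of neutrophil granules, was at 20.2 and 24 at day 5 with Topsym and 159 and 147 alone, and the receptor gene Csf3r fell with Topsym and rose alone, with log2 changes of -1.19 and 1.83. The summed list went from 8811 and 9045 to 67656 and 68506 with Topsym and from 8955 and 8580 to 315140 and 325007 alone. In the test between arms, the change was lower with Topsym for 18 of 24 and higher for none. In a fit of the compared libraries alone, 5 rather than 8 members were lower.

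**Figure D4:**
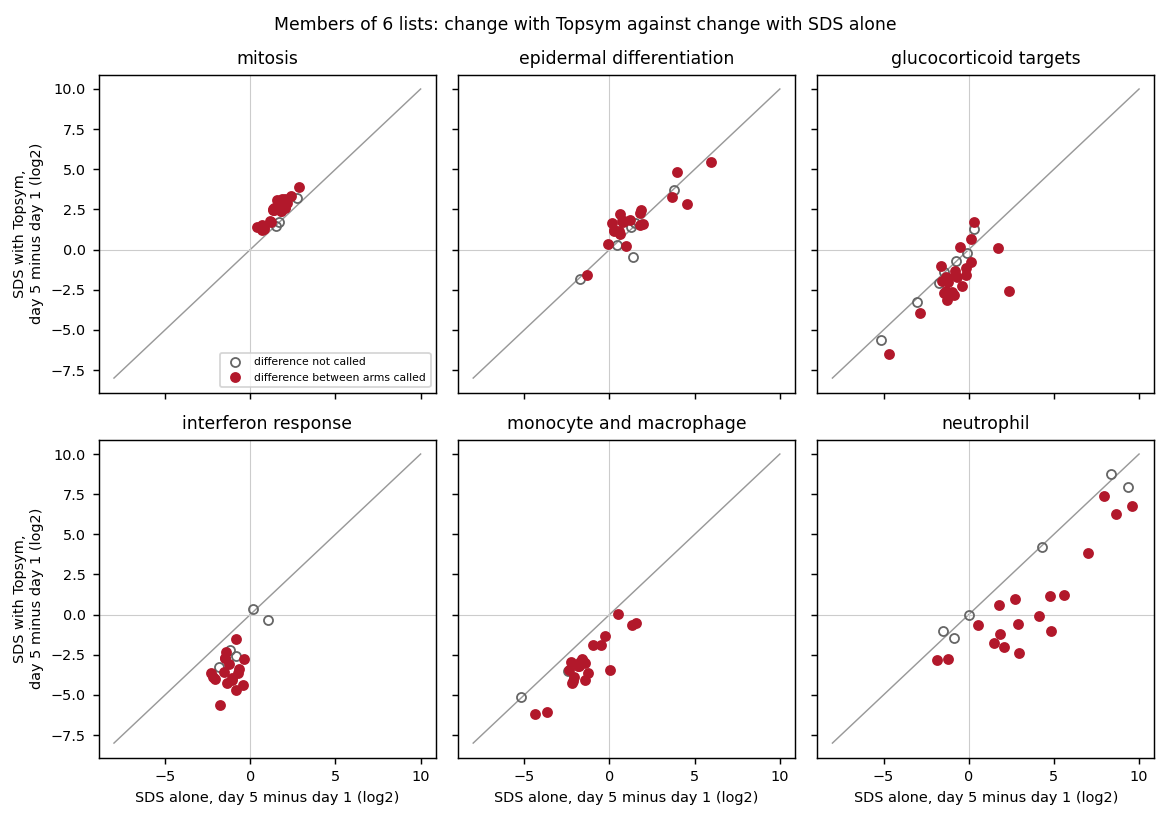
Change from day 1 to day 5 with Topsym (vertical axis) against SDS alone (horizontal axis), in log2(normalised reads + 1), for each member of 6 gene lists, with the line of equal change. Filled points passed the test of the difference between arms. Mitosis members lie on or above the line, at medians of 2.51 and 1.64, and interferon, macrophage and neutrophil members mostly below it.

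Chemokine, cytokine and acute phase genes were mixed. Of 27 chemokine genes 6 were higher and 16 lower (median -1.81, or -1.75 at the bound). The neutrophil attractant Cxcl2 rose from 20.4 and 18.6 to 254 and 248 with Topsym, and to 1591 and 1668 alone. The macrophage chemokines Ccl6 and Ccl8 fell from 10178 and 10263 to 611 and 505 and from 1518 and 1511 to 72.6 and 44.7. Of 22 cytokine and receptor genes 10 were higher and 7 lower. The alarmin Il33 rose from 464 and 505 to 2529 and 2639, and Csf1, the growth factor of macrophages, fell from 2877 and 2820 to 333 and 272. Of 17 acute phase genes 10 were lower and 2 higher, 1 in most alternatives. Saa3 rose from 404 and 367 to 1517 and 1540 (1.99, SE 0.30, adjusted p = 1.92e-05), and haptoglobin (Hp) fell from 6629 and 6628 to 391 and 315.

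Hair follicle stem cell genes counted 17 lower and 2 higher among 20, at a median of -1.89 (-1.56 alone). Cd34, a surface marker of bulge stem cells that vessels and dermal cells also carry, went from 6883 and 6635 through 1262 and 1253 at day 3 to 430 and 508 (-3.85, SE 0.09, adjusted p = 9.69e-16), against -2.58 alone. Lgr5, a receptor of cycling follicle stem cells, went from 91.6 and 85.8 to 8.07 and 0. At that depth the change of -4.90 (SE 0.95, adjusted p = 2.28e-04) is imprecise, and it did not part from the -4.89 seen alone (difference SE 1.35). Hopx, which keratinocytes above the basal layer also express, rose by 1.51. Of 29 hair cycle signal genes 19 were lower and 5 higher. The WNT antagonists Sfrp2, Sfrp4 and Dkk2 fell by 4.53, 3.74 and 3.62, and Wnt4, an epidermal ligand, rose from 1502 and 1505 to 10548 and 10296.

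Of 24 genes of the hair shaft and inner root sheath, 4 were higher and 5 lower at day 5, while 11 had no read at day 5 and 10 none at day 1. Krt84, a hair keratin, went from 28.6 and 17.8 to 309 and 331, and Tchh (trichohyalin of the inner root sheath) from 173 and 159 to 698 and 844. The summed list rose in level from 22284 and 21791 to 51521 and 51545, but the median change of its members was 0.0. Krt79, which is also on the sebaceous gland list, rose by 1.39. At day 0 of SDS alone, outside the libraries compared, Krt79 had 32313 and 33081 of summed normalised reads of 37983 and 38948. Its part in the rise of the sum with Topsym was not tested. Sebaceous gland genes counted 11 lower and 5 higher among 18, with the melanocortin receptor Mc5r at -4.62. Pigment cell genes were lower for 5 of 9 and Schwann cell genes for 10 of 12, none higher.

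Among the largest falls outside the lists, most genes had no read at day 5. Mup17, a major urinary protein gene whose reads can be shared with near copies, went from 594 and 912 to 0 and 0, at least 281-fold lower. Serpinb6e (chromosome 13, 33832345 to 33843408) went from 471 and 439 to 0 and 0 (at least 170-fold), the interferon-inducible Ifi206 from 175 and 213 (at least 72.5-fold) and the lectin gene Cd209c from 164 and 172 (at least 62.8-fold). Npy1r, a neuropeptide Y receptor, and Pon1, a paraoxonase, were without reads at day 5 too, lower by at least 46.0-fold and 44.8-fold, and the pentraxin gene Nptx2 went from 441 and 448 to 0 and 11.2. In all, 818 tested genes had no read at day 5 and 150 none at day 1, at unequal depth.

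Set against SDS alone, the arms shared most directions and differed in size. The median change over all genes was -0.08 with SDS alone. Of the genes that passed in both arms, 10098 went the same way, 74.4% of those called with Topsym and 80.6% of those called alone, and 442 went opposite ways. Among the 10098, the difference passed for 4018, and 3328 of these changed more with Topsym and 690 less.

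Uox, urate oxidase (chromosome 3, 146570426 to 146632305), had the most negative difference among genes with a group mean of at least 100, predicted gene models left out. It lay within its error of the next, Chil3. Uox rose from 1.94 and 0 to 3288 and 3258 with SDS alone, and from 5.73 and 1.55 to 52.4 and 91.1 with Topsym, a difference of -6.82 (SE 0.92, adjusted p = 2.91e-05). Chil3, a chitinase-like protein of myeloid cells, went opposite ways, from 441 and 445 to 105 and 129 with Topsym and from 17.5 and 18.5 to 541 and 520 alone (-6.72, SE 0.32, adjusted p = 4.29e-10). Its day 1 level was thus higher with Topsym. Mmp8, Rgs1 and Ifi206 followed, at -5.84, -5.77 and -5.04.

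Higher with Topsym were Thrsp, Nmrk2, Lars2, Hdhd3 and Aqp5, at differences of 4.71, 4.66, 4.11, 4.13 and 3.76. Thrsp, a regulator of fat synthesis, had a log2 change of -0.80 with Topsym, so it did not rise in that arm. At day 5 it stood at 169 and 185 with Topsym and at 12.8 and 0 alone. Nmrk2, a muscle kinase of nicotinamide riboside, fell in both arms, to 56.5 and 28.8 with Topsym and to no read alone. Its fall with Topsym was not called without replicate 2 of day 1 (-1.26) or of day 5 (-0.94), and the rise of Hdhd3 not without replicate 2 of day 1 (1.59) or replicate 1 of day 5 (1.67). Lars2, a mitochondrial leucyl-tRNA synthetase, stood at 1395 and 988 at day 1 and 22660 and 18763 at day 5 with Topsym, and at 955 to 1139 in the SDS alone libraries of both days. The annotated ribosomal RNA gene CT010467.1 moved with it, from 20797 and 11400 to 771082 and 663650 with Topsym and from 14831 and 18470 to 39578 and 44180 alone. Its part in the result for Lars2 was not tested.

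Day 3 of the arm with Topsym lay between day 1 and day 5 for most genes that moved at least 2-fold. That held for 2515 of the 3155 that were higher (79.7%) and 4367 of the 5213 that were lower (83.8%). At the median, 35.8% of the log2 rise and 30.9% of the log2 fall was present at day 3, so more of the change came after day 3 than before it for the typical gene. Some lists went otherwise, as the sums given for interferon and replication, which had moved most of the way by day 3. The MHC class II sum stood at 59003 and 58717 at day 1, 10250.4 and 10209.9 at day 3 and 6989 and 6847 at day 5. Of the genes higher at day 5, 451 stood below both other days at day 3 (14.3%), among them Krt10 and Lce1 genes.

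Clock genes and immediate early genes, which can move with the hour of collection and with handling, also differed. Of 17 clock genes 15 were lower and 2 higher with Topsym (median -0.96), and 7 and 7 with SDS alone (median -0.02), with 12 lower in the test between arms. Per2 fell from 393 and 390 to 105 and 89.5. Of 20 immediate early genes 14 were lower and 4 higher, with Fos at -2.85. Hemoglobin and other red cell genes counted 1 higher and 3 lower among 8. The hour of collection is not given, and its part in the results was not tested. The X-linked Xist transcript stood at 7003 and 7098 at day 1 and 3148 and 3163 at day 5. Of 6 sex-linked symbols listed, it alone was matched among the deposited genes.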

How the data were processed

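RNA of whole skin was prepared with the RNeasy Micro Kit and sequenced after a strand-specific Agilent SureSelect library preparation, per the labels' protocols. The submitters' processing notes name Trim Galore 0.6.7, HISAT2 2.2.1, featureCounts 2.0.3, DESeq2 2.11.40.8 and mm10, with no settings, and no source used here gives the strand used in counting. The deposited values are a normalised signal: read counts per gene divided by a factor per library by the authors. In all 16 libraries 100% of the values were whole multiples of 1 read (tolerance 1e-04), so reads and depth were recovered. Many recovered counts are even, as where mates are counted apart. Counting intervals are then too narrow, the floor in reads is too low, and the folds given as "at least" are too large.

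Genes with at least 10 normalised reads in at least 2 libraries were tested (19189 of 32078). The 8 groups entered 1 limma-trend fit (limma 3.58.1, R 4.3.3) of log2(value + 1), with 8 residual degrees of freedom and Benjamini-Hochberg adjustment at 0.05. The pseudocount understates changes of low genes. The difference between arms is the interaction contrast. The counts entered edgeR 4.0.16 and DESeq2 1.42.0 as alternatives. The scripts were tested on simulated data.

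Named genes were the 10 largest rises and 10 largest falls with a group mean of at least 100 and no overlap, 5 each way for the difference between arms, the 3 largest called members of each list, and 18 genes followed throughout. Predicted gene models and genes with clone-like names were left out of the rises, falls and differences. For the differences, overlap was not asked. Other genes named, among them all whose promoters are printed, were chosen after their values were seen. The comparison, members and lists were chosen with earlier results of these data known. Gene positions are GENCODE M21 and promoters RefSeq, both on GRCm38. Gene models that overlap or are nearly identical may split reads.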

Additional observations from a re-analysis of the deposited data

Results flagged for a closer look

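The change from day 1 to day 5 differed between the arms, by limma's test of the difference itself, for 27 of the 46 genes chosen as largest changes, as largest differences between arms or as followed throughout. The 5 genes each way taken as largest differences were chosen among genes that passed this test, so their pass was fixed by the choice. Over all genes tested, 35.0% passed it. Other genes with such a difference are given with their lists in the report. The values are the log2 change with Topsym minus that with SDS alone. With Topsym, Sprr2a3 had no read at day 1, and Npy1r, Ifi206, Serpinb6e and Cd209c had none at day 5. Nmrk2 had none at day 5 of SDS alone. The sizes of these differences depend on the pseudocount. The change was higher with Topsym for Thrsp (4.71), Nmrk2 (4.66), Hdhd3 (4.13), Lars2 (4.11), Aqp5 (3.76), Sprr2a3 (2.70), Krt5 (0.98), Krt10 (0.62), Mki67 (0.62) and Lipe (0.39). It was lower with Topsym for Uox (-6.82), Chil3 (-6.72), Mmp8 (-5.84), Rgs1 (-5.77), Ifi206 (-5.04), Npy1r (-5.04), Serpinb6e (-3.28), Sprr2b (-3.04), Cd209c (-2.93), S100a9 (-2.83), Pdk4 (-1.78), Cd34 (-1.27), Cd36 (-1.05), Nr3c1 (-0.97), Col1a1 (-0.96), Pnpla2 (-0.71) and Tsc22d3 (-0.38).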

How the results depend on the processing

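No result reversed under the alternatives run. With a log2 difference of at least 1 required as well, 8368 genes were called with Topsym (3155 higher), 6539 with SDS alone (2227 higher, 4312 lower) and 2331 for the difference between arms (772 higher, 1559 lower). Leaving out 1 library in turn gave 12313 to 13086 genes with Topsym and 5375 to 7019 for the difference. The count tests called 13370 (edgeR) and 13212 (DESeq2) genes with Topsym. Same-numbered libraries of days 1 and 5 with Topsym did not deviate together (correlation -0.0226), and with the replicate number as a block 13544 genes were called with Topsym, 12502 with SDS alone and 6569 for the difference. Among list counts, 1256 of 1288 values stayed within 1.5 times of the count reported. The rise of Hba-a2 was not called without replicate 1 of day 1 (0.24) or of day 5 (0.21) with Topsym. A filter on a mean of at least 50 was chosen after seeing the data. With 2 libraries a group, low genes such as Lgr5 are imprecise.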
